A study of Mus musculus with 14 samples.

Results

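Slc39a11, Tug1, Phka2, Ywhaq and Hax1 are 5 of the 27099 genes in a count table of Nes-GFP+ bone marrow stromal cells (BMSCs), and they were chosen by their levels in leukemic and normal mice. In both the Nes-GFP high and the Nes-GFP low population, the range of each gene over the AML libraries did not overlap its range over the normal libraries. Levels are CPM, the counts of a gene scaled to a library of fixed size, after TMM, a scaling that corrects each library for a few abundant genes taking up its reads. Slc39a11, Tug1 and Phka2 were higher in AML, and Ywhaq and Hax1 were lower. All 5 genes passed the filter on low counts, which kept 18152 genes, and 55 of these (0.303%) met the rule, 27 higher (0.149%) and 28 lower (0.154%) in AML. Because these values chose the genes, they are given as a description with no test. The separation was wide in the high population for the 3 genes that were higher in AML. It was narrow for all 5 genes in the low population, and for 4 of the 5 it depended on how the libraries were scaled.

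RNA of sorted Nes-GFP+ BMSCs was sequenced after amplification of polyA RNA from few cells, to ask how these cells differ between leukemic and normal mice. The AML mice were primary iMLL-AF9 mice, in which rtTA is expressed from the ROSA26 locus and a human MLL-AF9 fusion stands under a tetracycline-responsive element, and they were given doxycycline until leukemia was evident in the blood. Normal mice received sucrose water as vehicle, so that leukemia, the transgene and doxycycline cannot be told apart. Both kinds of mice carried GFP under regulatory elements of nestin (Nes), a filament protein, and the study describes its mice as adults of either sex, matched for age and sex. Live GFP+ cells without CD45, CD31 and, by the study's methods, the erythroid marker Ter119 were sorted into Nes-GFP high (2 AML and 2 normal libraries) and Nes-GFP low (4 AML and 6 normal libraries), and some libraries hold 1 mouse while others pool several, without the labels saying which.

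The 5 genes act in different pathways. Slc39a11 encodes ZIP11, a zinc transporter of the ZIP family, which moves zinc into the cytosol, where metallothioneins bind it. Tug1 is a long noncoding RNA that has been linked to chromatin-modifying complexes. Phka2 encodes the liver-type alpha subunit of phosphorylase kinase, the enzyme that activates glycogen phosphorylase, and mutations of the human gene cause a glycogen storage disease. Ywhaq encodes 14-3-3 theta, a member of a family of adaptors that bind phosphorylated proteins. Hax1 encodes a largely mitochondrial protein whose loss causes severe congenital neutropenia in people. In bulk libraries, fewer cells of a type and less RNA per cell cannot be told apart.

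The libraries held 5615941 to 11436652 counts. Of 10639 genes averaging 10 CPM or more in the low population, the share below 1 CPM was 24% in replicate 1 of normal Nes-GFP high, 13.8% to 17.6% in the other 3 high libraries and 1.5% to 12.1% in the low libraries. Normal Nes-GFP high replicate 1 also had the fewest genes with a count, at 14842. The summed level of 12 stromal markers was 63114 to 83367 CPM in normal and 6249 to 43047 CPM in AML Nes-GFP high libraries, and 5939 to 72192 and 883 to 32914 CPM in the low libraries. The stromal markers Cxcl12 and Lepr were present in all 14 libraries, and Nes itself ranged up to 5.7 CPM among Nes-GFP low libraries and from 26.7 to 36 CPM in 3 of the 4 high libraries, but at 2.27 CPM in normal Nes-GFP high replicate 1, inside the range of the low libraries and against its label. Of 8 endothelial markers, Cdh5, Kdr and Cldn5 had no count in any of the 14 libraries. In the high population the sums of 3 further lists did not overlap. These were the erythroid (11 of 12 genes kept, 38.3 to 57.9 CPM in AML, against 159 to 2888 CPM in normal libraries, Ahsp at 0), the lymphoid (10 of 10 kept, 11.4 to 31.5 and 35.3 to 371 CPM) and the endothelial (3 of 8 kept, 0.743 to 0.837 and 1.7 to 47.5 CPM). In the low population, the sums of all 6 cell type lists overlapped between AML and normal libraries. The sum of 14 myeloid markers was 2343 to 14112 CPM in AML and 1915 to 36294 CPM in normal Nes-GFP high libraries. In low libraries it was 6848 to 102044 and 782 to 108415 CPM. For 5 pan-hematopoietic markers it was 150 to 698 and 129 to 1176 CPM in high libraries. In low ones it was 807 to 6131 and 85.3 to 4626 CPM. Ptprc, which encodes CD45, ranged from 3.95 to 483 CPM over the 14 libraries, though the sort excluded CD45. The part of these cell types in the values of the 5 genes was not tested.

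Slc39a11 (ENSMUSG00000041654) lies on the minus strand of GRCm38 at chr11:113244853-113650079. Its levels in the AML Nes-GFP high libraries were 67.8 and 51.8 CPM, and in the normal ones 0 and 1.28 CPM, from 0 and 9 counts. For the count of 0 in normal replicate 1, the exact Poisson 95% interval reached 0.465 CPM. The value of 3 counts, the floor used where a group had no count, was 0.378 CPM. In the low population the AML libraries stood at 48.4, 44.6, 89.0 and 66.7 CPM, and the 6 normal libraries had a lowest value of 12.4, a median of 28.2 and a highest of 42.8 CPM. The groups lay far apart in the high population, with the lower AML library 40.6-fold above the higher normal library. In the low population that gap was 1.04-fold, or 1.84 CPM, between AML replicate 2 (446 counts, exact Poisson 95% interval 40.6 to 48.9 CPM) and normal replicate 3 (422 counts, 38.8 to 47.0 CPM). The fitted log2 fold change, AML over normal, was 6.53 (SE 1.37) in the high and 1.08 (SE 0.68) in the low population. Group means in the low population were 62.2 ± 20.3 CPM (SD, n = 4) in AML, compared with 29.4 ± 10.5 CPM (SD, n = 6) in normal mice.

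Tug1 (ENSMUSG00000056579) lies on the minus strand at chr11:3639785-3649673, and it overlaps Morc2a on the other strand. It stood at 40.3 and 93.3 CPM in AML, against 0.126 and 3.12 CPM in normal Nes-GFP high libraries, the latter from 1 and 22 counts. In Nes-GFP low, the AML libraries were at 56.2, 62.8, 36.5 and 56.9 CPM, and the normal libraries ran from 20.3 through a median of 29.9 to 34.8 CPM. Normal Nes-GFP low libraries were close together for this gene, with a mean of 29.1 ± 5.17 CPM (SD, n = 6), against 53.1 ± 11.4 CPM (SD, n = 4) in AML. The gap was 12.9-fold in the high population and 1.05-fold in the low population, where AML replicate 3 and normal replicate 6 faced each other with 395 and 344 counts. The fitted log2 fold changes were 5.36 (SE 1.17) and 0.87 (SE 0.61). Reads of Tug1 and of Morc2a in their shared bases cannot be told apart without strand, and Morc2a itself ranged from 8.55 to 14.4 CPM in AML and from 0 to 121 CPM in normal Nes-GFP high libraries.

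Phka2 (ENSMUSG00000031295) lies on the plus strand at chrX:160502166-160598878. Its levels were 99.4 and 48.9 CPM in AML, against 0 and 0.851 CPM (0 and 6 counts) in normal Nes-GFP high libraries, a gap of 57.4-fold. In Nes-GFP low, the AML libraries held 28.2, 63.9, 47.7 and 99.6 CPM. The 6 normal libraries varied more than for any other of the 5 genes, at 0.857, 9.93, 28, 2.57, 27.2 and 14.1 CPM, a coefficient of variation of 85.3%. The 2 edges were AML replicate 1 with 273 counts and normal replicate 3 with 276 counts (28.2 and 28 CPM), a gap of 0.671%, or 0.188 CPM, in which the AML edge had the fewer counts. The fitted log2 fold changes were 7.42 (SE 1.94) and 2.12 (SE 0.93). Phka2 is X-linked, and Xist, the RNA that coats the inactive X chromosome, was at 70.4 to 857 CPM in 8 libraries and at 1.64 to 6.19 CPM in 6. Both kinds were present in all 4 groups, and the part of the sex of the mice in the level of Phka2 was not tested.

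The stretch just before the start of each of these 3 genes, all chosen as higher in AML, is shown as a description. That their levels were alike across libraries follows in part from the rule that chose them, and shared regulation was not tested. RefSeq (GRCm38.p6) starts were used, and each line gives the 250 bases before the start, 5′ to 3′ on the strand of the gene. Capitals mark GGGCGG (GC box) or CCAAT, or their reverse complements.
Slc39a11: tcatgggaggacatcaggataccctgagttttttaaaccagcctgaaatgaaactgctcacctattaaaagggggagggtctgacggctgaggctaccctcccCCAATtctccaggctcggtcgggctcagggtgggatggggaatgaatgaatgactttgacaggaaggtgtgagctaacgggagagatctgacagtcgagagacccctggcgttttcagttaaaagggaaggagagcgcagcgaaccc
Tug1: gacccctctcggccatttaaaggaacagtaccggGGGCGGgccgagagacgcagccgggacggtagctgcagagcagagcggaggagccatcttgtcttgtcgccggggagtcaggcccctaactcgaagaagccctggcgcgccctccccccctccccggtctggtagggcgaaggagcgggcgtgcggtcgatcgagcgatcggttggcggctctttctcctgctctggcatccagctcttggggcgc
Phka2: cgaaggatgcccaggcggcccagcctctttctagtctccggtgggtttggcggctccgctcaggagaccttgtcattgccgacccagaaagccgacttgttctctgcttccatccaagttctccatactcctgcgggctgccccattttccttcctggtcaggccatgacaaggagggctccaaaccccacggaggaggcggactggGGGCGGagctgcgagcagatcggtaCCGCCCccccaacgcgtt
They lie at chr11:113650093-113650342 (minus), chr11:3648815-3649064 (minus, inside the longer GENCODE gene model) and chrX:160501912-160502161 (plus). Slc39a11 held 1 CCAAT and no GGGCGG, Tug1 held 1 GGGCGG, and Phka2 held 2. Ywhaq held 2 CCAAT, and Hax1 held neither. Over 32851 promoters of the same length, 32.7% held GGGCGG and 33.8% held CCAAT on either strand. CpG dinucleotides numbered 8 in Slc39a11, 24 in Tug1, 16 in Phka2, 24 in Ywhaq and 13 in Hax1, against a median of 6 over all promoters. Neither motif was in all 3 stretches, and a match describes letters and not a bound site.

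Ywhaq (ENSMUSG00000076432) lies on the minus strand at chr12:21390071-21417637 and had the highest level of the 5 genes per kilobase of exon. Its levels were 280 and 243 CPM in AML, against 389 and 701 CPM in normal Nes-GFP high libraries. In Nes-GFP low the AML libraries stood at 297, 195, 236 and 130 CPM, and the 6 normal libraries had a lowest value of 312, a median of 382 and a highest of 481 CPM. Unlike the 3 genes above, it was well detected in every library, and its gaps were small in both populations, at 1.39-fold and 1.05-fold. Mean levels in normal mice were 2.08-fold those in AML mice in the high population and 1.83-fold in the low population, with fitted log2 fold changes, AML over normal, of -1.06 (SE 0.50) and -0.87 (SE 0.33).

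Hax1 (ENSMUSG00000027944) lies on the minus strand at chr3:89995446-89998780. It was at 29.1 and 18.7 CPM in AML, against 56.1 and 76.0 CPM in normal Nes-GFP high libraries, a gap of 1.93-fold. In Nes-GFP low the AML libraries held 40, 40.8, 29.0 and 21.3 CPM, and the normal libraries ran from 41.3 through a median of 57.4 to 79.5 CPM. Normal replicates 1, 3 and 4 (41.3, 44.4 and 44.3 CPM) lay just above AML replicates 1 and 2, and the gap was 1.11%, or 0.453 CPM. AML replicate 2, the lower edge, had 408 counts, more than the 385 counts of normal replicate 1, the upper edge. The fitted log2 fold changes were -1.47 (SE 0.67) and -0.84 (SE 0.43).

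**Figure D1:**
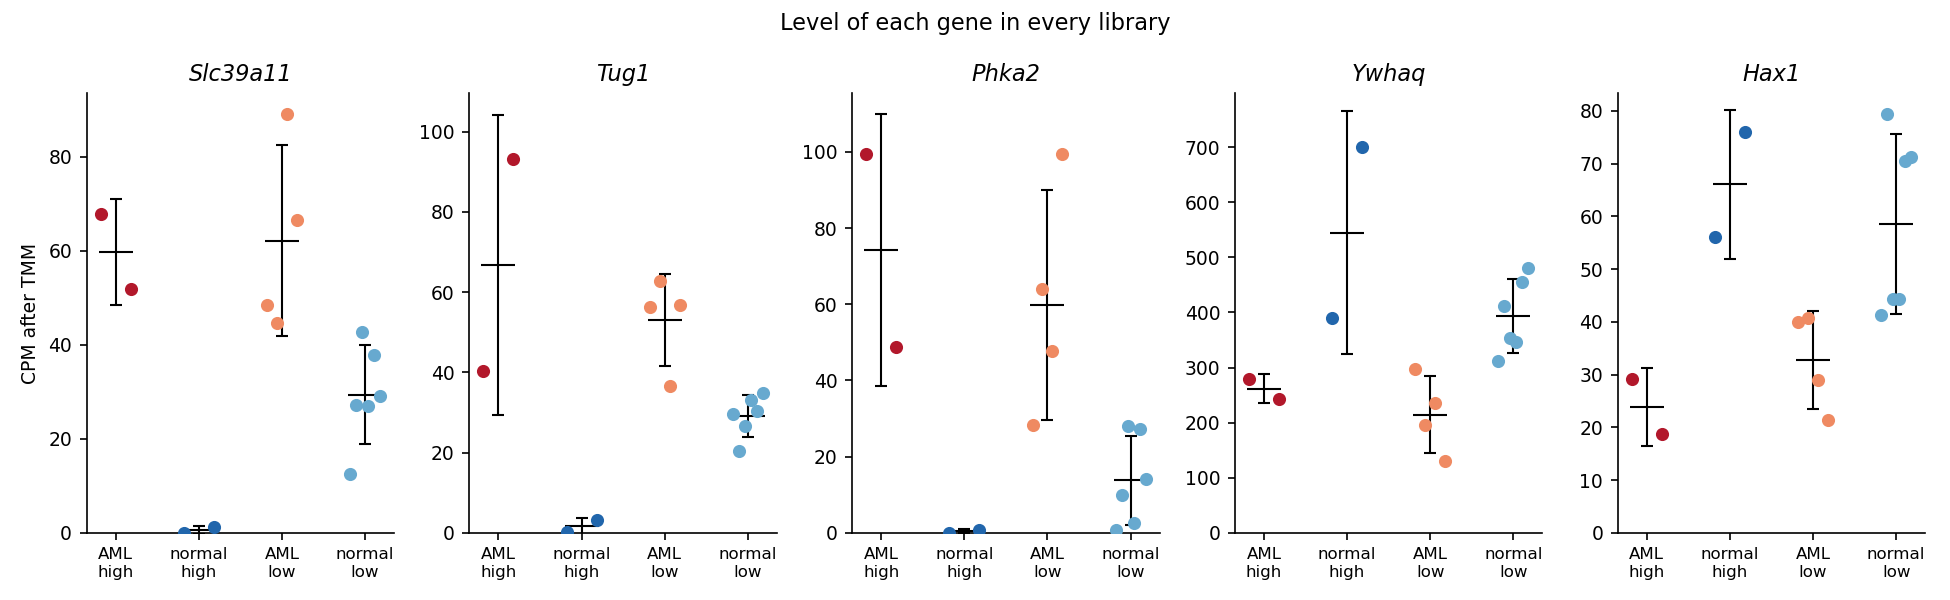
Level of each gene (CPM after TMM, linear axis from 0) in the 2 AML and 2 normal Nes-GFP high and the 4 AML and 6 normal Nes-GFP low libraries, with points for libraries and bars for the mean ± SD. Slc39a11, Tug1 and Phka2 stand at 0 to 3.12 CPM in normal Nes-GFP high, and the AML and normal points of every gene come within 5.08% of each other in Nes-GFP low.

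Across the 5 genes, the 2 libraries that faced each other over the gap in the low population had overlapping Poisson intervals for every gene, and in the high population for none. These intervals cover counting error of reads only, and not the error of amplification. The library at the edge was not always the same: AML low replicate 1 for Phka2 and Ywhaq, replicate 2 for Slc39a11 and Hax1, and replicate 3 for Tug1. In the high population alone, ranges did not overlap for 16% of genes tested in the direction higher in AML and for 11.5% in the direction lower, since each group held 2 libraries there. In the low population alone the shares were 0.441% and 0.667%. With both populations joined, the ranges of all 6 AML and all 8 normal libraries did not overlap for 35 genes (0.193%). Per kilobase of exon, the order of mean levels in normal Nes-GFP low libraries was Ywhaq (128 CPM per kb), Hax1 (31.3), Slc39a11 (8.75), Tug1 (2.99) and Phka2 (2.27). In AML Nes-GFP low it was Ywhaq (70.1), Slc39a11 (18.5), Hax1 (17.5), Phka2 (9.86) and Tug1 (5.45), and Slc39a11 and Hax1 did not differ there beyond their spread.

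Against the other genes that met the rule, the smaller gap of each of these 5, that in the low population, was small. In the high population the gaps of Phka2 (57.4-fold) and Slc39a11 (40.6-fold) were among the wider ones. For 27 of the 55 genes the smaller of the 2 gaps was under 1.1-fold, and all 5 were among them. For 8 it was over 2-fold, and the widest were those of Slc4a1, the anion exchanger of red cells (9.49-fold, lower in AML), Calca, the calcitonin gene (6.35-fold, higher), BC100530 (5.69-fold, higher), Coch (5.32-fold, higher) and Fam171a1 (4.98-fold, lower). Ranked by the smaller gap, Ywhaq was number 34, Tug1 35, Slc39a11 37, Hax1 44 and Phka2 45. Pym1 (1-fold), at number 46, had the smallest gap with counts in every group. The genes ranked below it, down to Fhl4, Myo18b and Tmem182 (0.246, 0.246 and 0.193), had a group with no count, and their gaps were taken against a floor of 3 counts. Just outside the rule, averaging 10 CPM or more, were Slc25a28 (0.998-fold, a mitochondrial iron transporter), Trim33 (0.992-fold) and Chchd1 (0.979-fold), each with overlap in the low population only.

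**Figure D2:**
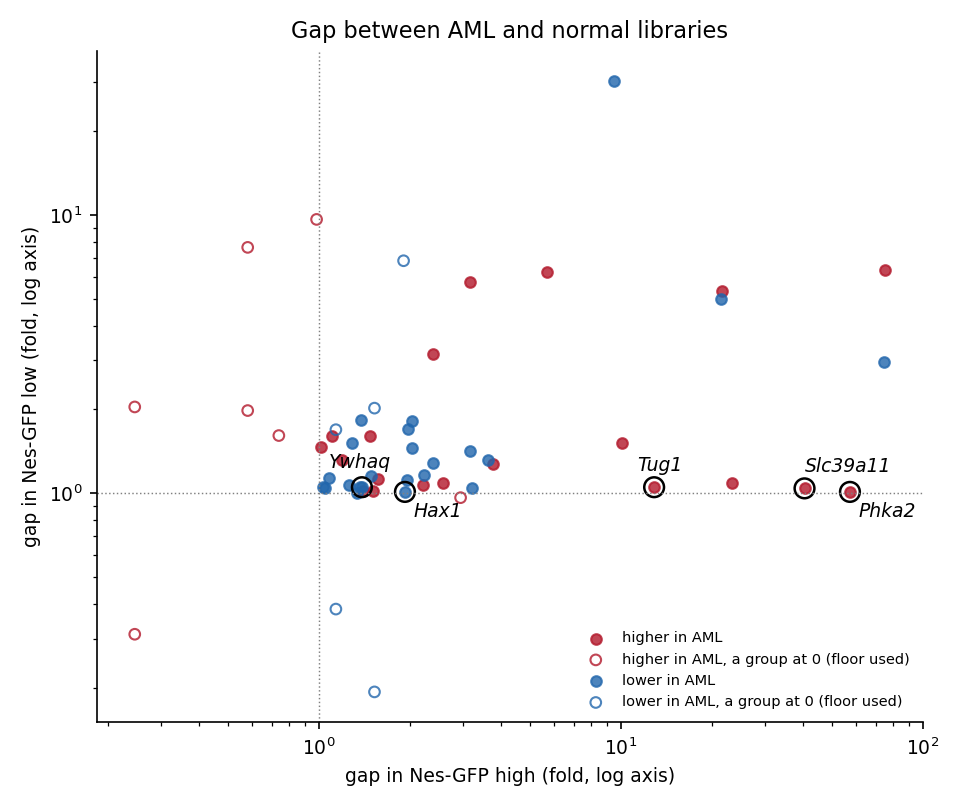
Gap between AML and normal libraries in Nes-GFP high (horizontal, fold, log axis) and Nes-GFP low (vertical, fold, log axis) for the 55 genes whose ranges did not overlap in both. The gap is the lowest library of the higher group over the highest library of the lower group, and open points have a group at 0, for which the floor of 3 counts was used. The 5 circled genes sit between 1.01 and 1.05 on the vertical axis and between 1.39 and 57.4 on the horizontal one.

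Whether the rule held for 4 of the 5 genes changed with the scaling of the libraries. Slc39a11 held under all 5 scalings tried, with low population gaps of 1.04 to 1.09-fold. On CPM of the total count, without TMM, it was the only gene of the 5 to hold: the low population gaps of Tug1, Phka2, Ywhaq and Hax1 were 0.948, 0.907, 0.899 and 0.822, with 1, 1, 1 and 3 normal libraries inside the AML range or beyond it. With DESeq2 size factors, Phka2 overlapped (0.970), and with upper quartile factors Ywhaq (0.949) and Hax1 (0.907) did, each with 1 normal library over the edge. All 5 held with TMMwsp, the variant of TMM for sparse counts. TMM factors ran from 0.817 (normal Nes-GFP high replicate 2) to 1.2 (normal Nes-GFP low replicate 5). Among the low libraries alone they ran from 0.902 (normal replicate 1) to 1.2, a spread far wider than the gaps in that population. In the high population all 5 genes held under all 5 scalings. Of all 55 genes, 45 held on the total count, 50 with DESeq2 size factors and 40 under all 5 scalings. The total count gave 57 genes, 36 higher and 21 lower in AML (63.2% higher, against 49.1% with TMM).

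Leaving out 1 library at a time and filtering and scaling the other 13 anew, Slc39a11, Tug1 and Ywhaq kept a gap in 14 of 14 cases. Phka2 and Hax1 overlapped in the low population in 6 of 14 cases each, the lowest gaps being 0.989 and 0.998. Leaving out a library cannot by itself narrow a gap, so these overlaps came from the new filter and scaling alone. A gap that was kept is thus no test. Some gaps were set by 1 library and widened without it. Without AML Nes-GFP low replicate 1 the gap of Phka2 in that population was 1.72-fold. Without AML Nes-GFP low replicate 3 that of Tug1 was 1.62-fold. In the high population the gaps of the 3 genes higher in AML moved most without normal replicate 2. They were then 140-fold for Slc39a11 and 132-fold for Phka2, both taken against the floor of 3 counts. That of Tug1 was 306-fold, from 1 count in the normal library left (0.126 CPM, Poisson 95% interval 0.00319 to 0.702 CPM). Without AML replicate 1 the high population gap was 29.9-fold for Tug1 and 3.08-fold for Hax1, and without AML replicate 2 it was 115-fold for Phka2. Without normal replicate 1, the library low in Nes, the gaps were 44.8-fold for Slc39a11, 13.6-fold for Tug1, 63.4-fold for Phka2, 2.38-fold for Ywhaq and 2.48-fold for Hax1. The fitted log2 fold changes in high were then 5.64 (SE 1.18), 4.54 (SE 1.03), 6.52 (SE 2.22), -1.31 (SE 0.58) and -1.57 (SE 0.77) in the same order.

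**Figure D3:**
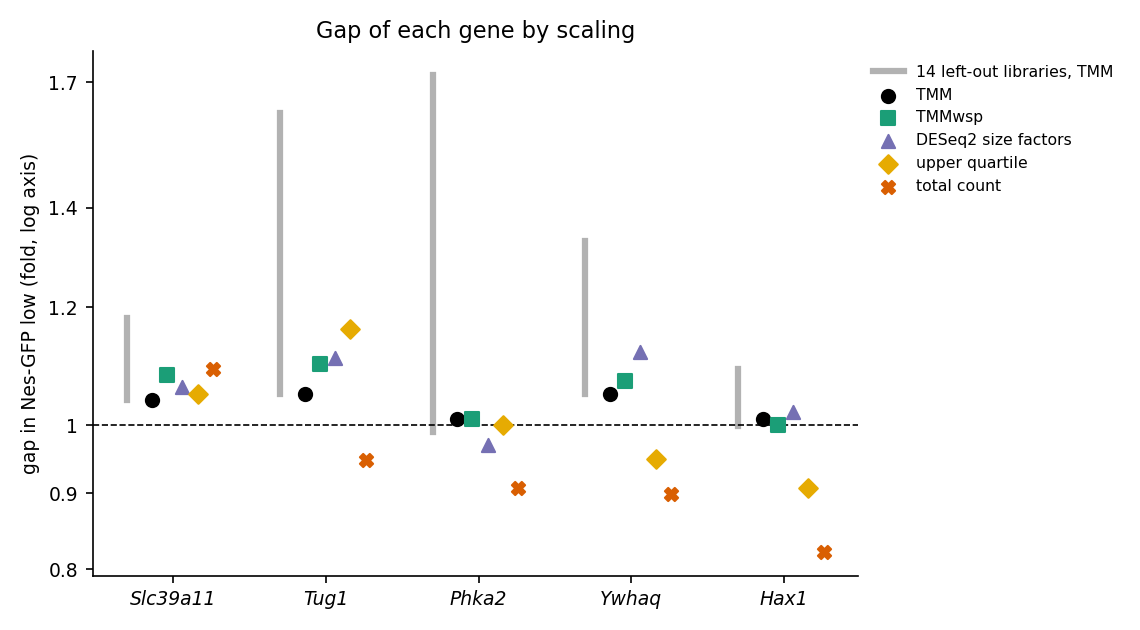
Gap in Nes-GFP low (fold, log axis) of each gene under 5 scalings (points), and its range when each of the 14 libraries is left out in turn under TMM (grey bars). Values under the dashed line at 1 are overlaps. Slc39a11 stays at 1.04 to 1.09 under the 5 scalings, and Hax1 falls to 0.822 on the total count.

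Nes-GFP high and low cells were set side by side within each kind of mouse. In normal mice, Slc39a11, Tug1 and Phka2 were lower in Nes-GFP high, with ranges that did not overlap. Slc39a11 was at 0 to 1.28 CPM in high and 12.4 to 42.8 CPM in low, a fitted log2 difference, high minus low, of -5.51 (SE 1.26). Tug1 differed by -4.16 (SE 1.04) on that scale. Phka2 differed by -4.99 (SE 1.67), and its lowest Nes-GFP low library (0.857 CPM) was level with its higher Nes-GFP high library (0.851 CPM). Without normal Nes-GFP high replicate 1, the library with the fewest genes detected, these differences were -4.66, -3.36 and -4.14. In AML mice the ranges of all 5 genes overlapped between the populations, with log2 differences of -0.06 (SE 0.92) for Slc39a11, 0.33 (SE 0.82) for Tug1 and 0.31 (SE 1.24) for Phka2. Ywhaq and Hax1 overlapped between populations in normal mice too, at 0.47 (SE 0.39) and 0.17 (SE 0.53). The libraries are those that chose the genes, so these differences carry no test.

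The genes whose levels were most like each of the 5 were found by Pearson's r of log2(CPM + 1) over the 14 libraries, which share their depth and scaling, and are given as a description. Slc39a11 was most like Usp4, a deubiquitinating enzyme (r = 0.955), Zfp655 (0.935) and Rnf141 (0.934). Tug1 was most like Zfp655 (0.954), Ubl7 (0.940) and Dnajc2, a ribosome-associated cochaperone (0.933). Slc39a11 and Tug1 had an r of 0.932 with each other, Slc39a11 and Phka2 of 0.870, and Tug1 and Phka2 of 0.765. Zfp655 had mean levels of 59.4 CPM in AML, against 1.63 CPM in normal Nes-GFP high libraries, but 48.5 and 39.6 CPM in the low libraries. Usp4 likewise went from 162 to 3.96 CPM in the high population and stood at 104 and 100 CPM in the low one. None of these genes met the rule. For Phka2 the most alike were Slc41a3, a magnesium transporter (0.919), Trim59 (0.897) and 5430405H02Rik (0.895). Slc41a3 had means of 107 CPM in AML, against 0.780 CPM in normal high libraries, and of 69.8 and 19 CPM in low libraries. Hax1 and Ywhaq had an r of 0.839 with each other, and r among the 5 follows in part from the rule that chose them.

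**Figure D4:**
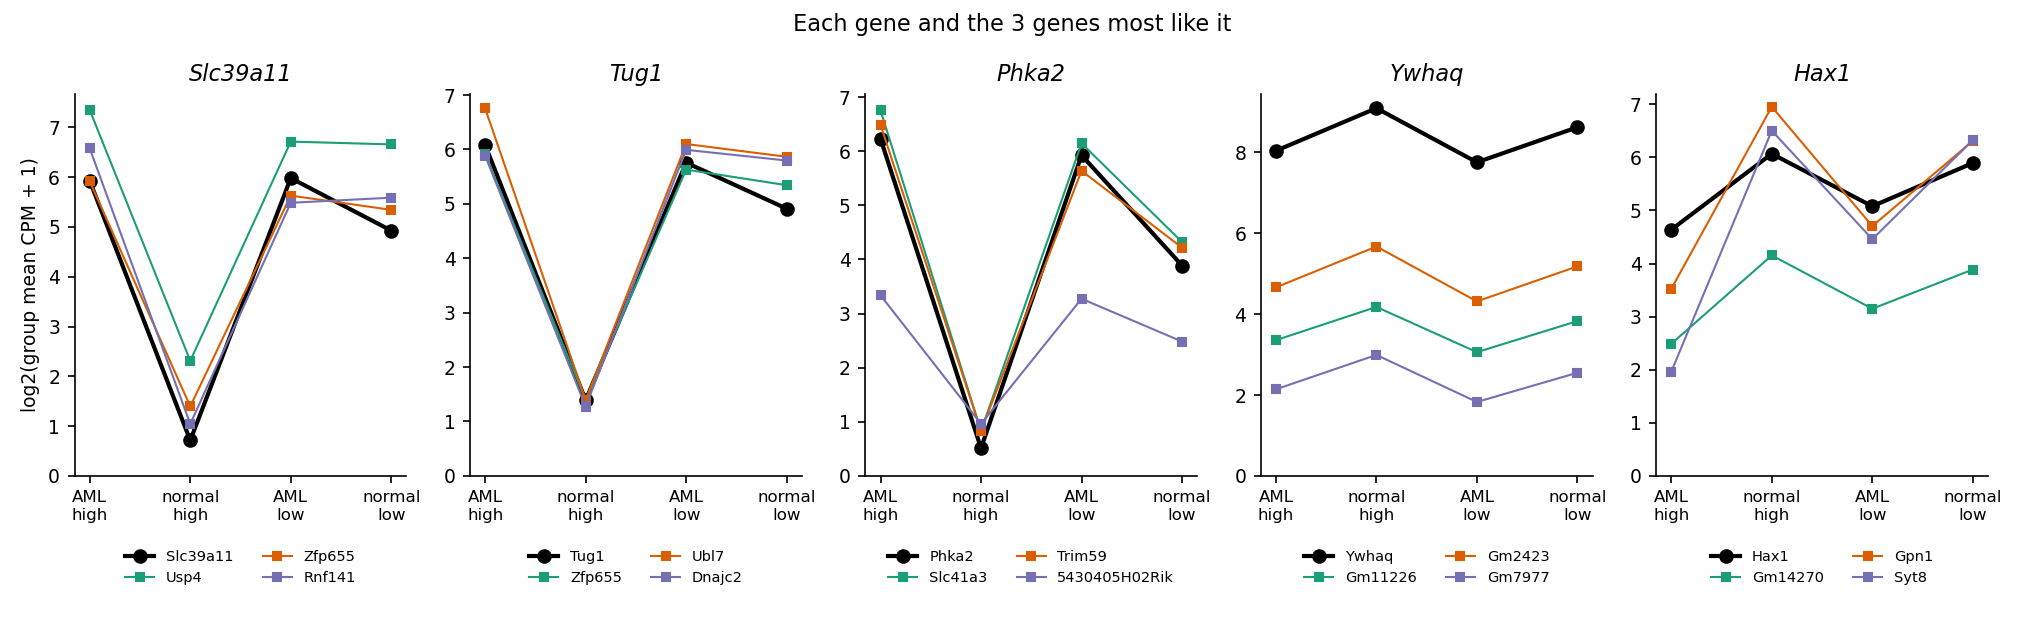
Group means as log2(CPM + 1) for each gene (black) and the 3 genes with the highest Pearson r to it over 14 libraries (colors), in the 4 groups. For Slc39a11, Tug1 and Phka2 the lines fall in normal Nes-GFP high, where the means of Slc39a11, Tug1 and Phka2 were 0.638, 1.62 and 0.426 CPM, and all 3 genes drawn beside Ywhaq are its pseudogenes.

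The 3 genes most like Ywhaq, and the gene most like Hax1, were copies of them. Ywhaq was most like Gm11226 (r = 0.987), Gm2423 (0.985) and Gm7977 (0.971), and Hax1 was most like Gm14270 (0.940). The next for Hax1 were not copies. Gpn1, a GTPase of RNA polymerase assembly (0.906), had means of 10.5 CPM in AML, against 123 CPM in normal Nes-GFP high libraries, and of 25.1 and 78.4 CPM in low libraries. Syt8, a synaptotagmin (0.879), had means of 2.90 and 89.7 CPM in high and of 21 and 79.2 CPM in low libraries. Gm11226, listed in RefSeq as an older name of Ywhaq-ps3, and the other 3 are annotated as processed pseudogenes, that is, copies of a spliced messenger RNA. By alignment of GENCODE M21 transcripts, at an identity of at least 90% over at least 150 bases, Ywhaq had 9 copies annotated as pseudogenes, all processed but Gm38040, and Hax1 had 2, both processed. Of the 9, 8 were in the count table and 5 passed the filter, and of the 2, 1 passed. Ywhaq-ps3 was 99.6% identical to Ywhaq over 738 aligned bases (chr4:70248636-70249373), and Gm2423 was 99.7% identical over 733 (chr13:13232161-13232893). Gm7977 was 91.6% identical over 750 (chr3:48026013-48026760), and Ywhaq-ps2 was 95.2% identical over 585 (chr5:114828573-114829215). Gm14270 was 99.3% identical to Hax1 over 846 (chr2:170285035-170285880), and its longest identical run was 340 bases.

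Coding bases 151 to 225 of each parent gene, 75 bases in 1 exon, are shown with the same bases of some of its pseudogenes. They show how many bases of this window could tell their reads apart. Capitals mark bases that differ from the parent.
Ywhaq: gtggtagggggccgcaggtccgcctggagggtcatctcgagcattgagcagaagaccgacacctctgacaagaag
Gm2423: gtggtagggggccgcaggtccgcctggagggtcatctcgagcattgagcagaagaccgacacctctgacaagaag
Ywhaq-ps3: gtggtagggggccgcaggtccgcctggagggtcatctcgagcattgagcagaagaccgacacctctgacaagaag
Ywhaq-ps2: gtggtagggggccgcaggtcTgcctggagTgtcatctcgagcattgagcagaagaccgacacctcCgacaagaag
Hax1: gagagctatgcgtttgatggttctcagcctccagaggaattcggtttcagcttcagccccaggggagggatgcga
Gm14270: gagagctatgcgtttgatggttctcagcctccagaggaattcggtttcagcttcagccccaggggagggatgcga
Gm6717: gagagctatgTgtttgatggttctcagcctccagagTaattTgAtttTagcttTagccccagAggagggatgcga
The parent stretches lie at chr12:21416867-21416941 and chr3:89997832-89997906 of GRCm38, both on the minus strand. Gm2423 and Ywhaq-ps3 had no difference from Ywhaq in this window, and Ywhaq-ps2 had 3. Of the Ywhaq pseudogenes not shown, Gm10608 and Gm21178 had 1 difference each and Gm9369 had 7. No comparison over this window is given for Gm13600, Gm38040 and Gm7977, the last 91.6% identical to Ywhaq over its aligned bases. Gm14270 had no difference from Hax1, and Gm6717, which did not pass the filter on counts, had 7.

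Levels of these pseudogenes followed those of their parents. Gm2423 had 23.1 to 25.4 CPM in AML, against 38.0 to 62.1 CPM in normal Nes-GFP high libraries, and 9.29 to 26.2 and 30.0 to 43.9 CPM in low libraries, a mean level 9.03% of that of Ywhaq. Gm14270 had 2.41 to 6.81 and 13.4 to 20.1 CPM in high, and 7.01 to 8.80 and 9.75 to 19 CPM in low libraries, 23.7% of the mean level of Hax1. Gm2423, Gm7977, Ywhaq-ps2 and Gm14270 were themselves among the 55 genes that met the rule, and they share sequence with their parents. Gm11226 overlapped in the low population, with 4.07 to 10.1 CPM in AML, against 9.64 to 16.9 CPM in normal libraries. The counts cannot say which copy was transcribed, and the levels of Ywhaq and Hax1 are uncertain to that extent. With the 5 kept pseudogenes added to Ywhaq, the gap was 1.39-fold in the high and 1.06-fold in the low population. With Gm14270 added to Hax1, it was 1.93-fold and 1.03-fold, so that no direction changed in either sum.

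**Figure D5:**
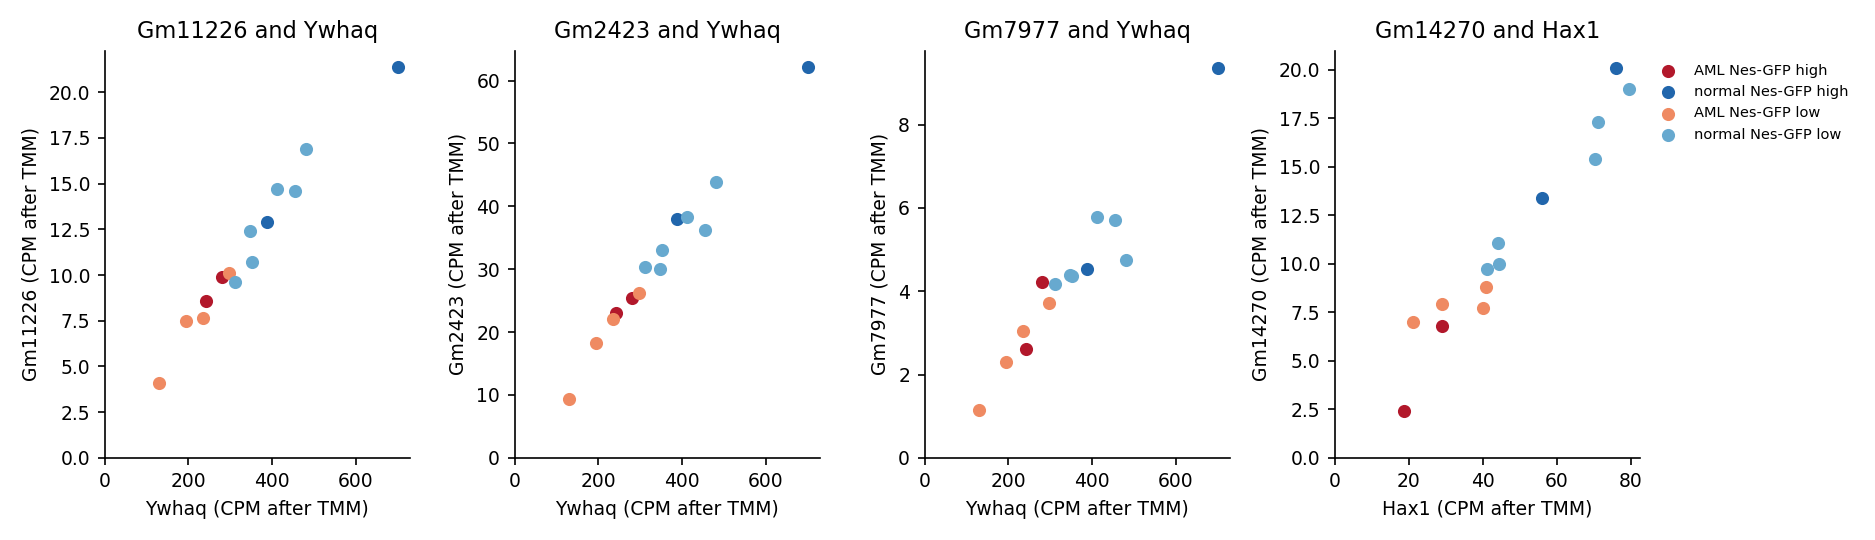
Level of 4 pseudogenes (vertical, CPM after TMM) against that of the parent gene (horizontal, CPM after TMM) in 14 libraries, colored by group, for Gm11226, Gm2423 and Gm7977 with Ywhaq and Gm14270 with Hax1. Points lie along a line for Gm11226 (r = 0.987), Gm2423 (0.985) and Gm7977 (0.971) with Ywhaq and for Gm14270 (0.940) with Hax1, r being on the log2(CPM + 1) scale.

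Genes of the pathways around the 5 were read in the fit over all genes, in which edgeR's quasi-likelihood test called 0 of 18152 genes (0%) at an adjusted p under 0.05 in Nes-GFP high, in Nes-GFP low or for their average. At an unadjusted p under 0.05 there were 1384 higher (7.62%) and 825 lower genes (4.54%) in high, 480 (2.64%) and 526 (2.9%) in low, and 1359 (7.49%) and 934 (5.15%) for the average. DESeq2 called 1593 genes in high (10.5% of 15167), with 946 higher (6.24%) and 647 lower (4.27%). It called 118 in low (0.681% of 17326), with 36 higher (0.208%) and 82 lower (0.473%). For the average it called 1150 (7.15% of 16075), with 635 higher (3.95%) and 515 lower (3.2%). None of the genes of the 5 lists below was among the 55 (0.303% of genes tested).

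Of 21 zinc transporters and metallothioneins kept by the filter, 12 had a fitted log2 fold change above 0 in high and 6 in low, with medians of 1.06 and -0.30, against 0.08 and 0.00 over all genes. None passed edgeR (in high, unadjusted p was under 0.05 for 2 higher genes and 1 lower one), and DESeq2 called Slc39a8 and Slc39a14 higher in high. Over all genes it called 6.24% higher there. Slc39a8 encodes ZIP8, a transporter of zinc and manganese. It had 21.1 and 28.2 CPM in AML, against 0 and 0.284 CPM in normal Nes-GFP high libraries (log2 fold change 7.35, SE 2.60, edgeR adjusted p = 0.321, DESeq2 adjusted p = 0.00705), and overlapped in low, at 0.647 to 96.8 and 0.429 to 23.6 CPM. Mt3, a metallothionein, had no count in AML high libraries and 0 and 9.71 CPM in normal ones.

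Of 35 long noncoding RNAs kept, 23 lay above 0 in high and 14 in low (medians 0.56 and -0.24). None passed edgeR, and DESeq2 called Snhg5 and Hoxa11os higher in high, against 6.24% of all genes it tested. Snhg5, a host gene of small nucleolar RNAs, had 69.0 and 118 CPM in AML, against 0.126 and 5.53 CPM in normal high libraries (log2 fold change 5.04, SE 1.35, edgeR adjusted p = 0.244, DESeq2 adjusted p = 0.000436). In low it was at 42.6 to 64.4 CPM in AML, inside the normal range of 30.2 to 141 CPM. Snhg8 had means of 41.1 and 15.4 CPM in high and 57.0 and 26.5 CPM in low, with overlapping ranges in low and an averaged log2 fold change of 1.26 (SE 0.62, edgeR adjusted p = 0.422).

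Of 27 genes of glycogen metabolism kept, 13 lay above 0 in high and 15 in low (medians -0.05 and 0.22). None passed edgeR, and DESeq2 called Pygb, a glycogen phosphorylase, higher and Gyg and Ppp1r3b lower in high. The shares over all genes it tested were 6.24% higher and 4.27% lower. Pygb had 0.496 and 69.2 CPM in AML, against 0 and 1.28 CPM in normal high libraries. Its higher mean in AML rested on 1 library. None of the other subunits of phosphorylase kinase met the rule. Phka1, the muscle-type alpha subunit, stood at 2.35 and 42.0 CPM in AML, against 0.284 and 89.8 CPM in normal high libraries. Phkb, the beta subunit, stood at 0.209 and 32.6 and at 0.993 and 44.0 CPM. Phkg1, the muscle-type catalytic subunit, was low throughout, at 1.13 to 5.20 CPM. Phkg2, the liver-type catalytic subunit, had 49.7 and 57.0 CPM in AML, against 1.42 and 22.6 CPM in normal high libraries (log2 fold change 2.15, SE 1.1, edgeR adjusted p = 0.444), and 21.7 to 31.2 against 11.9 to 48.5 CPM in low. Gyg, glycogenin, which primes glycogen, had 0.942 and 0.991 CPM in AML, against 32.7 and 35.3 CPM in normal high libraries (log2 fold change -5.12, SE 1.99, edgeR adjusted p = 0.358, DESeq2 adjusted p = 0.0195). Ppp1r3b, a glycogen-targeting subunit of a phosphatase, had 0.867 and 1.46 CPM in AML, against 0.126 and 148 CPM in normal high libraries, so that its lower mean in AML rested on 1 library.

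Of the 6 other 14-3-3 genes, 4 lay above 0 in each population. None passed either tool, and their median log2 fold changes were 0.22 in high and 0.18 in low. Ywhaz, 14-3-3 zeta, had means of 663 CPM in AML, against 509 CPM in normal Nes-GFP high libraries, and 652 and 551 CPM in low. Ywhab had 155 and 428 CPM in AML, against 575 and 623 CPM in normal high libraries, and means of 331 and 332 CPM in low. Ywhae differed least in high (270 and 237 CPM), and Ywhah had means of 135 and 212 CPM in high and 253 and 214 CPM in low. Ywhag had 76.4 and 64.3 CPM in high and 54.3 and 65.2 CPM in low, and the sign of its averaged fold change turned with the filter. Sfn, 14-3-3 sigma, was at 0 to 20.0 CPM. Whether the effect on Ywhaq differed from that on its family was not tested.

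Of 9 binding and processing partners of Hax1 kept, 6 lay above 0 in each population, and none passed either tool. Clpb, a mitochondrial disaggregase whose human gene also causes neutropenia, stood at 0.418 and 52.7 CPM in AML, against 1.42 and 3.78 CPM in normal high libraries. Atp2a2, the calcium pump of the endoplasmic reticulum, had means of 42.0 and 21.7 CPM in high and 55.8 and 37.5 CPM in low, with overlapping ranges in both (averaged log2 fold change 0.76, SE 0.65, edgeR adjusted p = 0.714).

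The genes next to the 5, or overlapping them, are given as a description. Fam104a, on the same strand beside Slc39a11, had means of 83.2 and 70.1 CPM in high and 39.5 and 42.0 CPM in low. Cog1, which overlaps Slc39a11 on the other strand, had 40.8 and 69.9 CPM and 37.0 and 36.8 CPM. Ubap2l, 1360 bases from Hax1, had 167 and 92.5 CPM and 116 and 127 CPM, and Gm11951, 6343 bases from Tug1, had 46.1 and 74.2 CPM and 49.2 and 50.8 CPM. Gm15241, 2296 bases from Phka2, had no count in the high libraries and at most 4 CPM in low, and Gm4419, which overlaps Ywhaq by 315 bases on the other strand, had means of 12.2 and 16.3 CPM and 12.9 and 11.2 CPM. None of these met the rule, which 0.303% of all genes tested met. The other nearest annotated genes were not kept by the filter or not in the table.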

How the data were processed

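The authors sorted Nes-GFP+ cells, amplified polyA RNA by a Smart-seq2 protocol and deposited raw counts per gene. The submitters' processing notes name Trim Galore 0.4.1, TopHat2 2.1.0, featureCounts, DESeq2 1.14.1 and the mm10 build. The strand setting and the treatment of reads with several positions are not given in the sources used here, which bears on genes with pseudogenes or antisense partners. Of 16 library columns, 14 matched a labelled sample and 2 were not used.

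Genes were filtered with filterByExpr (minimum count 10) and fitted with edgeR 4.0.16 (quasi-likelihood test, TMM, 4 groups, 14 libraries, R 4.3.3), with Benjamini-Hochberg adjustment and a threshold of 0.05. DESeq2 1.42.0 was the alternative tool. The gap is the lowest library of the higher group over the highest of the lower group. Where a group had no count, a floor of 3 counts (0.275 to 0.489 CPM by library) was used. Intervals are exact Poisson 95% intervals of the read counts and cover counting error of reads only. Reads carried no molecular identifiers, so the error from amplifying the RNA of few cells is not covered. Library totals were 5615941 to 11436652 counts. Positions are those of GENCODE M21 (GRCm38), and promoters are from RefSeq GRCm38.p6. The fit was tested on simulated data.

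The 5 genes and the lists of related genes and markers were chosen with earlier results of these data known. Besides the 5, the text names the 2 genes of each list with the smallest averaged p, all kept 14-3-3 genes and phosphorylase kinase subunits, the 3 genes with the highest r to each of the 5, the nearest neighbors, and the 5 widest, 3 narrowest and 3 just-outside gaps. Slc39a14, Hoxa11os, Pygb, Pym1, overlapping genes, pseudogenes and markers were added after their values were seen. Alternatives were other scalings and filters, DESeq2, a replicate block and leaving out each library. TMMwsp, upper quartile factors and the sums with pseudogenes were chosen after seeing the data. Some libraries hold 1 mouse and others pool mice, and p-values measure only the spread between these libraries. Which lymphoid markers had no count is not reported here.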

Additional observations from a re-analysis of the deposited data

How the results depend on the processing

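Slc39a11 kept its gap in both populations under every setting tried, and all 5 genes kept theirs in Nes-GFP high. In Nes-GFP low the log2 gap turned below 0 on the total count for Tug1 (-0.0763), Phka2 (-0.141), Ywhaq (-0.154) and Hax1 (-0.282), with upper quartile factors for Ywhaq (-0.0753) and Hax1 (-0.141), with DESeq2 size factors for Phka2 (-0.0437), without a filter for Phka2 (-0.000224), and with a mean of at least 10 CPM for Phka2 (-0.00198) and Hax1 (-0.0478). Leaving out each library, it ran from -0.0158 to 0.786 for Phka2 and from -0.00343 to 0.119 for Hax1. The count of 55 genes was 32 among genes averaging 10 CPM or more, 35 over all 6 against all 8 libraries, and 68 to 156 with a library left out. On a fixed scaling and filter, leaving out a library cannot lower this count, and joining the populations cannot raise it. Against 0 calls by edgeR, DESeq2 called 1593 genes in high, 118 in low and 1150 averaged, and the 10 CPM filter gave 1 in high and 1 averaged. Leaving out a library, edgeR called 0 to 194 in high (194 without normal Nes-GFP high replicate 2), 0 to 0 in low and 0 to 166 averaged. What else lay behind these changes was not tested.

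Fitting the replicate block left 0 calls in all 3 comparisons. In low, same-numbered libraries deviated together with r of 0.216, 0.0543, 0.35 and -0.121, against -0.236 to 0.297 for differently numbered ones. In high, with 2 libraries in each group, every r was 0.0505 or -0.0505 by construction and cannot show pairing. The numbers were not taken to pair libraries. Averaged log2 fold changes turned with the block for Phka1 (0.56), Phkb (0.587) and Ywhag (0.238), and for Ywhag also without a filter (0.0184) and with 10 CPM (0.00814). With a library left out they ran from -1.42 to 2.04 for Clpb, -2.17 to 3.41 for Phka1, -3.38 to 2 for Phkb, -3.48 to 1.48 for Ppp1r3b, -0.286 to 0.604 for Ywhag and -0.67 to 0.0649 for Ywhah.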
